A study of Arabidopsis thaliana with 9 samples.

Results

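The genes described here are 141 of the 33323 nuclear genes in the deposited tables of an Arabidopsis thaliana RNA-seq study. They encode NLRs, the intracellular immune receptors with a nucleotide-binding (NB-ARC) domain and leucine-rich repeats. A gene was taken as a member where the first phrase of the authors' description of its function names NBS-LRR or NB-ARC. The study profiled whole rosettes, without roots, of 3 genotypes at 23 days, with 3 libraries each. The groups are jazD, a mutant in 10 JAZ genes (JAZ1, JAZ2, JAZ3, JAZ4, JAZ5, JAZ6, JAZ7, JAZ9, JAZ10 and JAZ13), jazQ, a mutant in 5 of them (JAZ1, JAZ3, JAZ4, JAZ9 and JAZ10), and the wild type, Col-0. The labels name the lines only, and the mutated genes are background knowledge of these lines. JAZ proteins are repressors of jasmonate signalling. No hormone or pathogen treatment is labelled. Rosettes of about 20 plants were pooled for each library. Plants had days of 16 h light and 8 h dark at 20 °C, with mutants and wild type side by side in a tray, and the replicates are labelled as independent biological samples. In the labels the jazD accession reads Col-0*, and the mark is left unexplained.

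Of the members, 24 lie among the 1330 genes from AT5G44490 to AT5G55790, a stretch of the long arm of chromosome 5 in which jazD may carry a different chromosome segment, and these are described apart. The other 117 lie outside it. By the authors' descriptions, 66 of the 117 are of the TIR-NBS-LRR class, 24 are CC-NBS-LRR, 22 are described by the NB-ARC domain, 2 are NBS-LRR of no stated class and 3 are pseudogenes. In the stretch 22 are TIR-NBS-LRR, 1 is CC-NBS-LRR and 1 is described by its NB-ARC domain. The rule does not take every known receptor. Of 45 receptors named in a list from textbook knowledge, 33 are members, and ZAR1, TAO1 and the ADR1-like helpers are among those that are not.

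NLRs sense pathogen effectors inside the cell, either by direct binding or by watching a host protein that the effector modifies. Receptors with an N-terminal TIR domain signal through the lipase-like proteins EDS1, PAD4 and SAG101 and the helper NLRs of the ADR1 and NRG1 families, while several receptors with a coiled-coil (CC) domain form ion channels in the plasma membrane. Raised NLR levels can start cell death and stunt growth, and plants hold them down with microRNAs such as miR472, secondary small RNAs, protein turnover and copine proteins. Many of the genes lie in clusters of related copies, which evolve quickly.

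Library totals ran from 15370271 to 20730459 expected counts. NLR genes took between 0.382 and 0.447% of the counts of a library. JAZ1 had 2.05, 2.69 and 2.26 CPM in jazD, 2.66, 2.54 and 2.79 CPM in jazQ, and 25.4, 26.5 and 23.8 CPM in Col-0. Both mutants therefore lay below every Col-0 library for JAZ1, and over the 10 JAZ genes mutated in jazD, 3 were called lower and 4 higher in jazD than in Col-0. Counts over a whole gene do not show whether a transcript is intact. Summed rosette markers (5 photosynthesis genes) were at 46600 to 47030 TPM (transcript level normalised for gene length and depth) in jazD, 51960 to 57550 TPM in jazQ and 52960 to 53290 TPM in Col-0. Summed phloem markers (4 genes) were at 238 to 261 TPM in jazD, 291 to 317 TPM in jazQ and 278 to 303 TPM in Col-0. Of 6 root markers, RHD6 and EXPA7 were at 0 in all libraries, and the sum was 8.63 to 10.4 TPM in jazD, 10.8 to 11.7 TPM in jazQ and 11.6 to 14.3 TPM in Col-0. The sum of 5 flower markers stayed between 0.38 and 1.09 TPM over all libraries. Guard cell markers (4 genes) summed to 33.5 to 38.7 TPM in jazD, 41.9 to 49.3 TPM in jazQ and 35.4 to 41.8 TPM in Col-0, and trichome markers (3 genes) to 12.5 to 15.1 TPM in jazD, 16.1 to 17.0 TPM in jazQ and 11.5 to 12.9 TPM in Col-0. The part of these marker differences in the NLR results was not tested.

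NLR genes were transcribed over a wide range without any treatment. Of the 141 members, 39 had a mean of at least 10 TPM over the 9 libraries, 59 lay between 1 and 10 TPM and 43 were under 1 TPM, of which 7 had no count at all. The median member was at 4.43 TPM, against 2.30 TPM over all genes of the tables. The 5 highest members held 27.1% of the summed NLR level and the 10 highest held 41.8%. RPP5, a receptor for downy mildew effectors, was the highest at 92.9 ± 3.32 TPM in jazD, 88.2 ± 8.07 TPM in jazQ and 94.7 ± 0.121 TPM in Col-0 (SD, n = 3 in each group). SNC1, known for an autoimmune allele, followed at 84.5 ± 6.25 TPM in jazD, 78.9 ± 7.08 TPM in jazQ and 81.6 ± 2.75 TPM in Col-0. RPP4, RPP7 and RPP8, also downy mildew receptors, came next. RPP4 was at 72 ± 4.67 TPM in jazD, 77.9 ± 9.66 TPM in jazQ and 81 ± 3.19 TPM in Col-0, RPP7 at 79.3 ± 5.70 TPM in jazD, 67.8 ± 2.25 TPM in jazQ and 70.8 ± 1.07 TPM in Col-0 and RPP8 at 75.7 ± 3.47 TPM in jazD, 61.3 ± 2.46 TPM in jazQ and 61.8 ± 2.49 TPM in Col-0. The means ± SD of each pair of neighbours in this order overlapped in at least 1 genotype. RPP5, SNC1 and RPP4 sit in a single cluster, and 45.7% of the 50-base words of RPP5 and 27.0% of those of RPP4 recur in another gene, so the split of reads between these copies is an estimate.

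**Figure D1:**
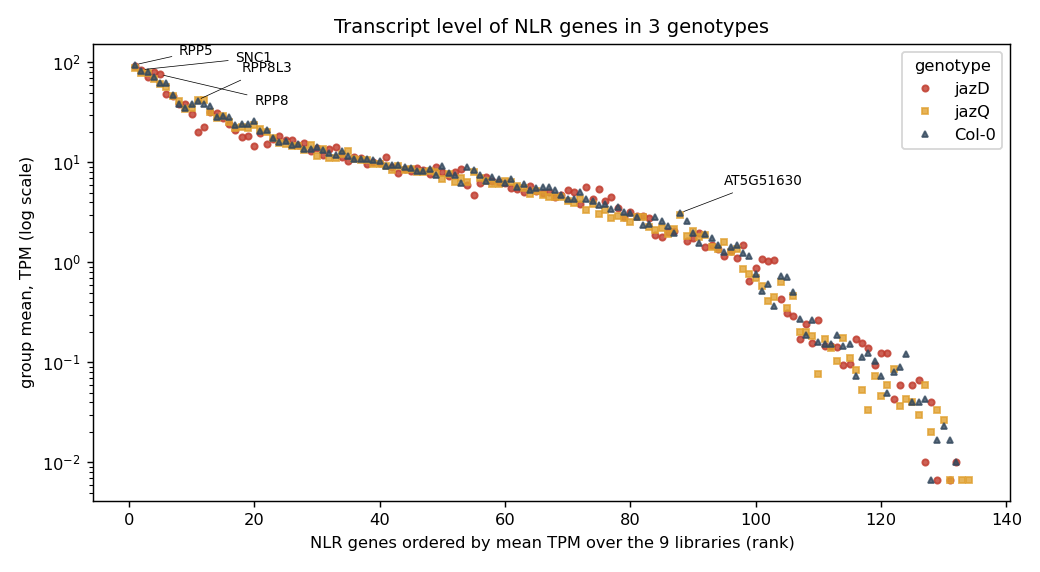
Mean transcript level of each NLR gene with a count, in TPM on a log axis, by rank over the 9 libraries, for jazD (circles), jazQ (squares) and Col-0 (triangles), with means of 0 not drawn. The 3 genotypes run together over most of the range, while jazD lies above the others at RPP8 and below them at RPP8L3.

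The summed level of the 117 members outside the stretch was 1238 ± 19.5 TPM in jazD, 1237 ± 91.0 TPM in jazQ and 1299 ± 61.2 TPM in Col-0 (SD, n = 3 in each group). The groups overlapped. The exact two-sided permutation test gave p = 0.3 for jazD against Col-0, p = 0.5 for jazQ against Col-0 and p = 1.0 for jazD against jazQ, where 0.1 is the smallest p that 3 libraries against 3 can give. The 24 members of the stretch summed to 162 ± 2.66 TPM in jazD, 186.6 ± 12.5 TPM in jazQ and 193 ± 3.16 TPM in Col-0. There every jazD library lay below every jazQ and Col-0 library, and the exact permutation test gave p = 0.5 for jazQ against Col-0. That sum takes in AT5G51630, without a count in jazD, and such genes are part of what set the stretch apart. The jazD difference is therefore a description only. In TPM the genes tested also ran lower in jazD as a whole, with a median log2 fold change of -0.067 against Col-0 on log2(TPM + 1). Replicates of the tested members varied about as much as those of other genes, with a median coefficient of variation of 7.26% in jazD, 9.40% in jazQ and 9.09% in Col-0, against 7.5, 8.85 and 8.2% over all genes tested.

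In jazD, NLR genes outside the stretch moved in both directions, and 76 of the 91 that could be tested stayed within 0.5 of no change on the log2 scale. The edgeR quasi-likelihood test, with Benjamini-Hochberg adjustment over 19405 genes, could be run for 91 of the 117 members, and 26 had too few counts. At adjusted p under 0.05, 23 of the 91 (25.3%) differed between jazD and Col-0, 15 higher and 8 lower in jazD. Over all 18542 genes tested outside the stretch the share was 25.3%, with 13.2% higher and 12% lower, so the NLR genes were called about as often as any gene. Their median log2 fold change was -0.01, against 0 over all genes, and the sign of the median thus differs from the balance of the calls. When TPM, which fix the total of each library, were used in place of scaled counts, 7 members were called higher and 10 lower, and over all genes the split was 1980 higher and 3421 lower, where scaled counts gave 2580 higher and 2426 lower. In whole rosettes, fewer cells of a type that expresses a gene and less RNA per cell cannot be told apart.

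Receptors of the CC-NBS-LRR class were called in 10 of 21 cases tested (47.6%), 6 higher and 4 lower in jazD, with a median of 0.11. Those described by the NB-ARC domain were called in 3 of 15 cases (20.0%), 1 higher and 2 lower. Of the 52 TIR-NBS-LRR genes tested, 8 were called higher and 2 lower (19.2% in all), with a median of -0.01. Over all genes tested outside the stretch the share called was 25.3%. None of the 3 genes of the remaining classes that were tested was called by edgeR. A difference between the classes was not tested.

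**Figure D2:**
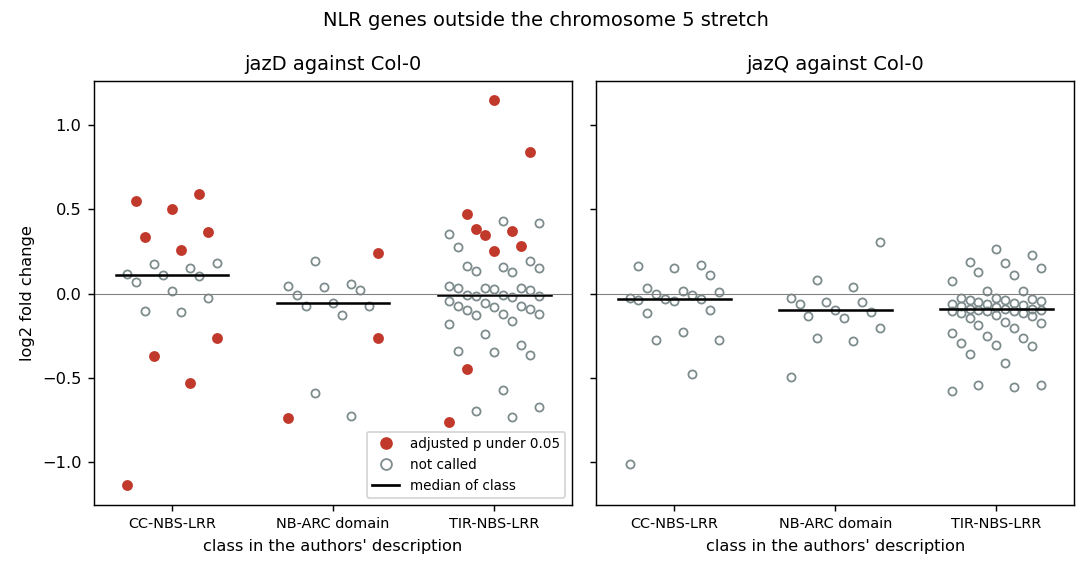
Log2 fold change of each tested NLR gene outside the stretch, by class, for jazD against Col-0 (left) and jazQ against Col-0 (right), with genes at adjusted p under 0.05 filled and the class median as a line. Calls lie on both sides of 0 in jazD, 15 higher and 8 lower, while no gene was called in jazQ.

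Among CC-type sensors, the downy mildew receptor RPP8 (AT5G43470, chr5:17462547-17467448 of TAIR10.1, minus strand) had 196, 207 and 211 CPM in jazD, 157, 159 and 161 CPM in jazQ, and 163, 152 and 162 CPM in Col-0. CPM are counts scaled to the depth of each library, and the values in parentheses that follow are log2 fold changes of jazD against Col-0 with their SE, unless another comparison is named. All jazD libraries lay above the others, and the log2 fold change against Col-0 was 0.37 ± 0.06 SE, adjusted p = 0.00027. AT5G35450, a relative of RPP8 with 88.0% identical coding sequence, had 22.1, 23 and 23.5 CPM in jazD, 16.5, 19 and 17 CPM in jazQ, and 17.5, 14.2 and 15.2 CPM in Col-0. It too was higher in every jazD library (0.55 ± 0.09 SE, adjusted p = 0.00063). AT1G15890, a gene of the same class without a well-known ligand, had 12.7, 11.8 and 13.7 CPM in jazD, 6.98, 6.32 and 7.56 CPM in jazQ, and 7.66, 8.25 and 9.39 CPM in Col-0, and its jazD libraries were clear of the rest (0.59 ± 0.11 SE, adjusted p = 0.0014). AT1G63350 had 10.3, 10.7 and 9.01 CPM in jazD, 5.71, 5.5 and 6.24 CPM in jazQ, and 7.27, 6.97 and 6.99 CPM in Col-0, again with jazD on top (0.50 ± 0.10 SE, adjusted p = 0.0032). RPP7, described by its NB-ARC domain (chr1:21746354-21766048, plus strand), had 272, 267 and 298 CPM in jazD, 232, 228 and 226 CPM in jazQ, and 236, 236 and 238 CPM in Col-0. Its jazD libraries were all higher (0.24 ± 0.06 SE, adjusted p = 0.007), a call that ended with TPM in place of scaled counts (adjusted p = 0.085).

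The largest fall among these genes was at AT1G58390 (chr1:21690642-21694447, minus strand), with 0.943, 0.67 and 0.511 CPM in jazD, 0.602, 1.01 and 0.697 CPM in jazQ, and 1.63, 1.28 and 1.7 CPM in Col-0. It is a low gene, and the jazD libraries lay below those of Col-0 but among those of jazQ (-1.14 ± 0.29 SE, adjusted p = 0.012 against Col-0). AT1G61300 had 29.9, 32.6 and 32.1 CPM in jazD, 49.7, 51.3 and 45.4 CPM in jazQ, and 55.6, 54.5 and 47.5 CPM in Col-0. This was the lowest adjusted p among members outside the stretch (-0.74 ± 0.08 SE, adjusted p = 1.3e-05), and jazD was below both other genotypes. Its relative AT1G61190, the sixth highest member by level, had 111, 118 and 116 CPM in jazD, 132, 134 and 123 CPM in jazQ, and 138, 142 and 135 CPM in Col-0, and was also lower in jazD (-0.26 ± 0.06 SE, adjusted p = 0.0041). AT5G63020 had 35.6, 35.2 and 36.1 CPM in jazD, 49, 44.8 and 42.3 CPM in jazQ, and 47.8, 49.4 and 41.4 CPM in Col-0. Again jazD formed the low group (-0.37 ± 0.08 SE, adjusted p = 0.0038). AT1G58848 had 101, 93.8 and 101 CPM in jazD, 116, 107 and 106 CPM in jazQ, and 133, 115 and 109 CPM in Col-0, with jazD lowest (-0.27 ± 0.08 SE, adjusted p = 0.021), but 93.1% of its 50-base words recur in another gene, mostly AT1G59218, whose coding sequence is 100% identical. The call of AT1G58390 was lost without jazD replicate 3 (adjusted p = 0.057), and that of AT1G58848 without jazD replicate 2 or Col-0 replicate 1 (adjusted p = 0.092 to 0.11).

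The helper NLRs did not move together. ADR1, which works with EDS1 and PAD4, had 13.7, 13.3 and 13.8 CPM in jazD, 13.8, 14.1 and 14.3 CPM in jazQ, and 20.9, 22.2 and 15.8 CPM in Col-0. Both mutants lay below every Col-0 library, jazD with a log2 fold change of -0.53 ± 0.11 SE, adjusted p = 0.0035, and jazQ with -0.48 ± 0.11 SE, adjusted p = 0.061. Without Col-0 replicate 3, the lowest of its group, the jazQ difference was called too (-0.62, adjusted p = 0.0018). NRG1.1, a helper that works with EDS1 and SAG101, had 40.1, 41.4 and 35.8 CPM in jazD, 32.4, 34.1 and 28.8 CPM in jazQ, and 32.2, 34.8 and 31.2 CPM in Col-0. The jazD libraries were all above the others (0.26 ± 0.08 SE, adjusted p = 0.037 against Col-0), but the call was lost without jazD replicate 1 or 2 or Col-0 replicate 1 or 3 (adjusted p = 0.11 to 0.14). Its neighbour NRG1.2, 79.4% identical in coding sequence, had 18.5, 17.5 and 16.7 CPM in jazD, 14.2, 12.4 and 13.3 CPM in jazQ, and 15.3, 17.7 and 13.8 CPM in Col-0. There jazD overlapped with Col-0 (0.17 ± 0.10 SE, adjusted p = 0.23).

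Other well-known CC-type sensors did not pass the test between jazD and Col-0. RPM1, which guards RIN4, had 14.3, 14.4 and 11.9 CPM in jazD, 14.6, 15.1 and 11.8 CPM in jazQ, and 13.6, 12.6 and 13.8 CPM in Col-0, a full overlap (0.02 ± 0.11 SE, adjusted p = 0.92). RPS2, the other RIN4 guard, had 4.79, 4.61 and 4.88 CPM in jazD, 6.29, 3.6 and 5.41 CPM in jazQ, and 10.03, 4.55 and 6.95 CPM in Col-0, and the Col-0 libraries spread widely around the jazD values (-0.59 ± 0.28 SE, adjusted p = 0.16). Without Col-0 replicate 2 it was called lower in jazD (-0.82, adjusted p = 0.018), and 92.8% of its 50-base words also lie in a gene on the opposite strand, AT4G26095, so reads of the pair cannot be told apart without strand. RPP13, another downy mildew receptor, had 71.8, 71.8 and 82.5 CPM in jazD, 64.7, 66.1 and 63.6 CPM in jazQ, and 67.6, 67 and 63.5 CPM in Col-0. All jazD libraries were higher than those of Col-0, at an adjusted p just above the threshold (0.19 ± 0.07 SE, adjusted p = 0.0503), and it was called with DESeq2's size factors (adjusted p = 0.048) and where genes averaging under 1 CPM were dropped (adjusted p = 0.049). SUMM2, which watches a MAP kinase cascade, and LOV1, which confers sensitivity to the fungal toxin victorin, had log2 fold changes of 0.06 and -0.01 (adjusted p = 0.8 and 0.96).

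**Figure D3:**
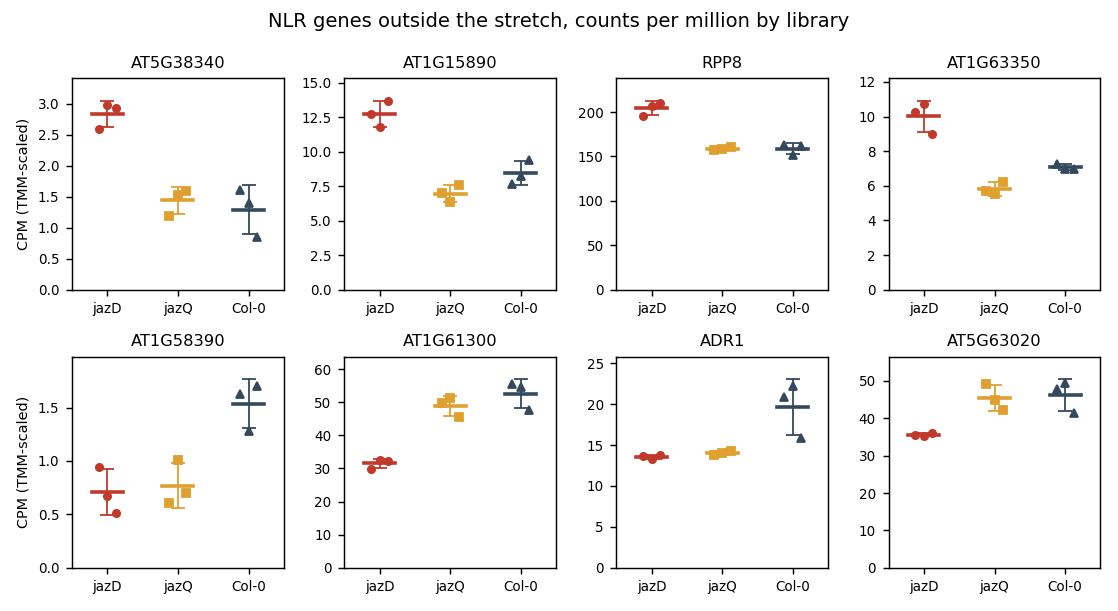
CPM (TMM-scaled counts) of 8 NLR genes outside the stretch in each library of jazD, jazQ and Col-0, with the mean as a bar and the SD as an error bar (n = 3). AT5G38340, AT1G15890, RPP8 and AT1G63350 lie higher in jazD than in both other genotypes, AT1G61300 and AT5G63020 lie lower, and AT1G58390 and ADR1 are low in jazQ as well.

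Among TIR-type genes the largest change was at AT5G38340 (chr5:15320375-15324832, plus strand), with 2.59, 2.98 and 2.94 CPM in jazD, 1.2, 1.53 and 1.59 CPM in jazQ, and 1.61, 1.41 and 0.845 CPM in Col-0. The gene is low, and all jazD libraries exceeded the others (1.15 ± 0.23 SE, adjusted p = 0.0028 against Col-0). AT4G11170 had 2.38, 2.87 and 2.99 CPM in jazD, 1.13, 1.18 and 0.867 CPM in jazQ, and 1.32, 2.38 and 0.95 CPM in Col-0. Col-0 replicate 2 lay level with the lowest jazD library (0.84 ± 0.28 SE, adjusted p = 0.043). Leaving out any jazD library or Col-0 replicate 1 or 3 ended that call (adjusted p = 0.059 to 0.15). DSC1, identified together with DSC2 through dominant suppressors of autoimmunity in plants lacking the transcription factor CAMTA3, had 15.8, 16.6 and 16.9 CPM in jazD, 11.8, 12.6 and 12.4 CPM in jazQ, and 13.1, 12.6 and 12.2 CPM in Col-0, all jazD libraries being higher (0.38 ± 0.08 SE, adjusted p = 0.0033). DSC2 had 5.67, 4.91 and 5.53 CPM in jazD, 5.92, 5.96 and 6.79 CPM in jazQ, and 8.35, 5.81 and 7.81 CPM in Col-0, and went the other way (-0.45 ± 0.14 SE, adjusted p = 0.034). Its call was lost without any single jazD library or without Col-0 replicate 1 or 3 (adjusted p = 0.061 to 0.14), and that of DSC1 with TPM (adjusted p = 0.053 to 0.056). AT3G25510 had 2.54, 3.39 and 3.54 CPM in jazD, 3.59, 3.25 and 3.9 CPM in jazQ, and 5.76, 5.93 and 4.43 CPM in Col-0, with jazD below Col-0 but not below jazQ (-0.76 ± 0.17 SE, adjusted p = 0.0051 against Col-0).

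The cluster of RPP4, RPP5 and SNC1 (AT4G16860 to AT4G16960) holds 7 members, and its summed level was 265.7 TPM in jazD, 257.8 TPM in jazQ and 270.7 TPM in Col-0. The 3 high genes of the cluster did not differ by the test between jazD and Col-0, with log2 fold changes of 0.05 for RPP5, 0.12 for SNC1 and -0.09 for RPP4 (adjusted p = 0.6, 0.21 and 0.39). At lower levels, AT4G16900 had 27, 25.4 and 26 CPM in jazD, 23.7, 20.7 and 21.8 CPM in jazQ, and 20.5, 20.4 and 19.7 CPM in Col-0, all jazD libraries being higher (0.37 ± 0.07 SE, adjusted p = 0.0021). AT4G16960 had 13.8, 15.6 and 13.8 CPM in jazD, 9.53, 7.53 and 7.31 CPM in jazQ, and 11.2, 8.61 and 11.2 CPM in Col-0, also with jazD on top (0.47 ± 0.12 SE, adjusted p = 0.013). That call was lost without jazD replicate 2 or Col-0 replicate 2 (adjusted p = 0.051 to 0.061), and 54.7% of the 50-base words of AT4G16960 recur elsewhere. The other TIR-type receptors with a known role outside the stretch, among them RPP1 (-0.12), CSA1 (0.03), BNT1 (-0.02), RAC1 (0.03) and WRR4A (-0.36), were not called in jazD. RLM1 had too few counts to be tested.

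Called genes lay both inside and outside gene clusters. With up to 8 other identifiers allowed between neighbours, 75 members outside the stretch fell into 30 clusters. In jazD against Col-0, 11 of these clusters held a called gene. Only the RPP4 cluster and the RPP7 cluster (AT1G58602 to AT1G59218) held more than 1, and in the RPP7 cluster RPP7 was higher and AT1G58848 (chr1:21791688-21797050, plus strand) lower. Shared sequence limits part of the set. Outside the stretch, 19 tested members share over 20% of their 50-base words with other genes, and 3 of these were called, against 20 of 72 of the rest.

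Members were also compared by a match to miR472, a microRNA known to pair with the stretch of NLR transcripts that encodes the P-loop of the NB-ARC domain. Its mature sequence, from RefSeq (TAIR10.1, chr1:4182143-4182164, minus strand), is shown with the seed, bases 2 to 8, in capitals and T for U. Below it stand the matching sites of 4 called members outside the stretch, and of SUMM2 and AT5G43740 for comparison, each on the strand of its transcript. In the sites, capitals mark bases that differ from the perfect complement of the microRNA.
miR472-3p: tTTTTCCTactccgcccatacc
AT1G15890: ggtatgggGggagtaggTaaaa
AT1G61190: ggtatgggTggTgtaggCaaaa
AT1G61300: ggtatgggTggTgtTggaaaaa
AT5G63020: ggtatgggTggagtaggTaaaa
SUMM2: ggCatgggTggagtaggCaaaa
AT5G43740: ggtatgggGggagtaggaaaaa

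The sites lie at chr1:5461946-5461967 (plus strand) for AT1G15890, chr1:22558139-22558160 (plus) for AT1G61190, chr1:22609953-22609974 (minus) for AT1G61300, chr5:25285441-25285462 (minus) for AT5G63020, chr1:4176992-4177013 (minus) for SUMM2 and chr5:17566541-17566562 (plus) for AT5G43740, all in coding sequence. Of 36953 genes searched, 22 (0.06%) have a match with at most 3 differences, and 20 of these are members. Outside the stretch 15 such members could be tested, and 5 (33.3%) differed between jazD and Col-0, against 25.3% of all genes tested there. AT1G15890, with 2 differences, was among those that were higher, and AT1G61190, AT1G61300 and AT5G63020 were lower. The median log2 fold change of the 15 was 0.02. Genes with such a site thus stood on both sides of 0, and microRNA levels were not measured here.

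The region around the transcription start was searched for 3 short motifs on both strands, from 250 bases before to 50 bases after the start, in RefSeq sequence. The W-box core TTGAC, bound by WRKY transcription factors, occurs there in 100 of the 141 members (70.9%), against 16419 of all 32834 genes with such a sequence. The G-box CACGTG, bound by MYC factors among others, occurs in 2.1% of members and 6.9% of all genes, and the GCC-box GCCGCC, bound by ERF factors, in 2.8 and 2.7%. Outside the stretch the W-box core was found in 11 of 15 members higher in jazD than in Col-0, in 5 of 8 lower ones, in 43 of 68 tested ones without a call and in 21 of 26 that were not tested. These shares describe the sequences only.

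In jazQ no NLR gene was called against Col-0. The edgeR test called 0 of 91 members outside the stretch and 0 of 19 within it, against 1.28% of all genes outside it (0.863% higher and 0.415% lower) and 1.16% of those within it. At an unadjusted p under 0.05 it listed 12 members outside (1 higher and 11 lower in jazQ) and 3 within, all lower. DESeq2's Wald test called 1 outside and 0 within, and limma, on voom weights or on TPM, called 0 in both. The median log2 fold change was -0.09 outside and -0.06 in the stretch, against -0.01 over all genes of each region. ADR1, given above, had the lowest adjusted p of the members (0.061). Values of jazQ and of jazD are both set against the same Col-0 libraries, so the 2 comparisons are not independent.

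Against jazQ, jazD was higher at most of the members called. Outside the stretch 22 of 91 members differed, 18 higher and 4 lower in jazD, against 28.3% of all genes (15% higher and 13.4% lower). The median was 0.08, against 0 over all genes. The genes with the largest rises were largely those described above. AT4G11170 had a log2 fold change of 1.38 ± 0.30 SE, adjusted p = 0.0036, AT5G38340 of 0.96 ± 0.23 SE, adjusted p = 0.0068 and AT1G15890 of 0.87 ± 0.11 SE, adjusted p = 7.5e-05. AT3G04220, which is low, had 3.56, 2.87 and 3.1 CPM in jazD, 2.59, 1.24 and 1.4 CPM in jazQ, and 3.22, 2.08 and 2.16 CPM in Col-0. Its jazD libraries lay above those of jazQ (0.90 ± 0.27 SE, adjusted p = 0.023) and overlapped with those of Col-0. NRG1.2, whose values stand above, was called higher in jazD than in jazQ (0.40 ± 0.10 SE, adjusted p = 0.0091), as was NRG1.1 (0.30 ± 0.08 SE, adjusted p = 0.015) and RPP13 (0.22 ± 0.07 SE, adjusted p = 0.026).

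Lower in jazD than in jazQ were AT1G61300 (-0.63 ± 0.08 SE, adjusted p = 5.5e-05), AT5G63020 (-0.35 ± 0.08 SE, adjusted p = 0.0054), AT1G61190 (-0.17 ± 0.06 SE, adjusted p = 0.042) and AT4G19530. AT4G19530 had 83.7, 65.8 and 69.3 CPM in jazD, 168, 119 and 102 CPM in jazQ, and 143, 106 and 99.8 CPM in Col-0. Every jazD library lay below the other groups, which were more variable (-0.82 ± 0.22 SE, adjusted p = 0.03 against jazQ and -0.67 ± 0.22 SE, adjusted p = 0.067 against Col-0). Against Col-0 it was called with DESeq2's Wald test (adjusted p = 0.0013), in a fit of those 2 groups alone (0.026), with limma on TPM at both pseudocounts (0.019) and without jazQ replicate 1 or 3 (0.018 to 0.046). The jazQ comparison lost several calls when 1 library was left out. AT3G04220 was lost without jazD replicate 1 or 3 or jazQ replicate 2 or 3 (adjusted p = 0.054 to 0.09), and RPP13 without jazD replicate 3 or jazQ replicate 1 or 3 (0.055 to 0.10). NRG1.1 was lost without jazD replicate 1 or 2 or jazQ replicate 3 (0.054 to 0.068), and AT4G19530 without jazD replicate 2 or 3 or jazQ replicate 2 (0.061 to 0.092). AT1G61190 was lost on leaving out any of 7 libraries, all but jazQ replicate 3 and Col-0 replicate 3 (0.053 to 0.15). AT4G16900 (0.25 ± 0.07 SE, adjusted p = 0.022) was lost without jazD replicate 1 or jazQ replicate 2 or 3 (0.061 to 0.08).

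In the chromosome 5 stretch, too, members changed in both directions. Of the 24 members there, 19 could be tested, and 8 differed between jazD and Col-0 (4 higher and 4 lower), against 37.5% of the 863 tested genes of the stretch. The median log2 fold change of the members was 0.00 and that of all genes of the stretch -0.06. With TPM the split was 2 higher and 5 lower. Against jazQ, 8 of 19 members differed (5 higher and 3 lower), where 39.5% of all genes of the stretch did. Where jazD carries another sequence than the reference, a lower count and less transcript cannot be told apart, and that limit holds for every jazD value in the stretch.

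**Figure D4:**
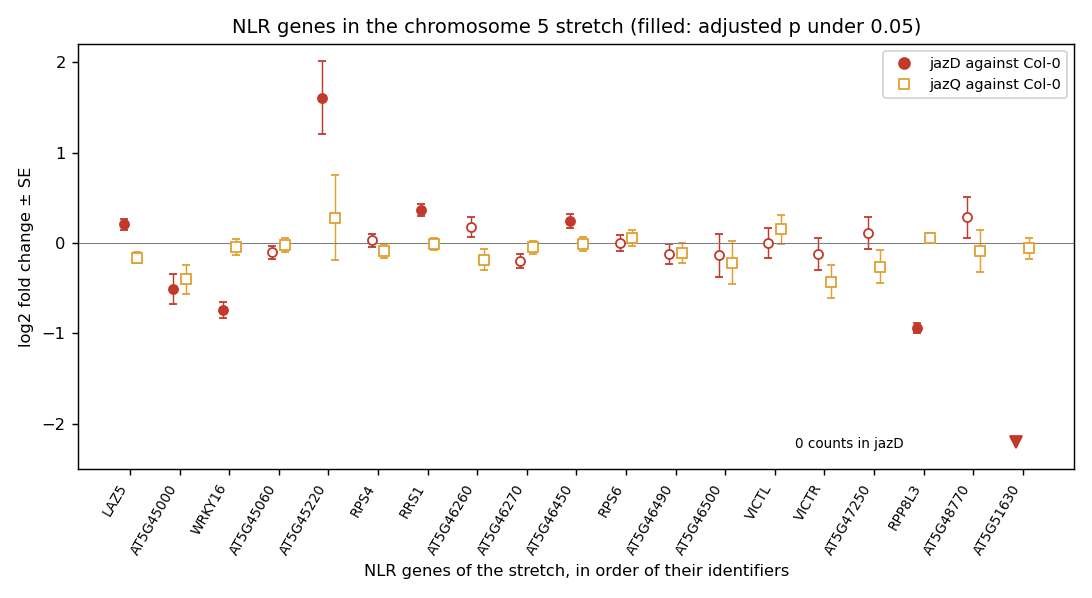
Log2 fold change ± SE of the 19 tested NLR genes of the stretch in order of their identifiers, for jazD against Col-0 (circles) and jazQ against Col-0 (squares), filled where the adjusted p was under 0.05. RPP8L3, WRKY16 and AT5G45000 are lower and AT5G45220, RRS1, AT5G46450 and LAZ5 higher in jazD, AT5G51630 is drawn at the lower edge because its jazD count was 0, and no jazQ point is filled.

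AT5G51630, a TIR-NBS-LRR gene (chr5:20969128-20975940, plus strand), had no count in jazD. It had 0, 0 and 0 CPM in jazD, 8.45, 10.3 and 9.1 CPM in jazQ, and 9.21, 10.2 and 9.71 CPM in Col-0. A count of 0 allows up to 3 counts over the group, and on that floor it was at least 172.1-fold lower in jazD than in Col-0 and at least 165.5-fold lower than in jazQ. It is 1 of 10 genes of the stretch that were nearly silent in jazD (mean under 0.3 CPM, with over 2 CPM in both other genotypes). Such genes are part of what set the stretch apart, so the value is a description.

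RPP8L3 (AT5G48620, chr5:19716104-19721477, plus strand), the closest relative of RPP8 in the set, had 63.1, 60.6 and 65.1 CPM in jazD, 127, 123 and 126 CPM in jazQ, and 122, 116 and 123 CPM in Col-0. Its jazD libraries stood near 52.2% of the Col-0 level, with no overlap (log2 fold change -0.94 ± 0.06 SE, adjusted p = 5.3e-08), and jazQ did not differ from Col-0 by the test (0.06, adjusted p = 0.74). RPP8, outside the stretch, was higher in jazD, as given above. The division of reads between the 2 copies in jazD was not tested, so both changes are differences in assigned counts. The coding sequences of the 2 genes are 95.1% identical (2605 of 2739 aligned positions), and 15.2% of the 50-base words of RPP8 and 14.8% of those of RPP8L3 recur in another gene. The 250 bases before their starts are shown here because the assigned counts of the 2 genes changed in opposite directions. They align with 54.2% identity (154 of 284 positions), within the 48.8 to 56.5% that the upstream sequences of the other members give against RPP8. In the longer region searched above, which adds the 50 bases after the start, RPP8L3 has 1 W-box core and RPP8 has 0. The 250 bases are from RefSeq (TAIR10.1), chr5:17467449-17467698 on the minus strand for RPP8 and chr5:19715854-19716103 on the plus strand for RPP8L3. They are on the strand of the gene and have no capitals because neither holds the W-box core TTGAC on either strand.
RPP8: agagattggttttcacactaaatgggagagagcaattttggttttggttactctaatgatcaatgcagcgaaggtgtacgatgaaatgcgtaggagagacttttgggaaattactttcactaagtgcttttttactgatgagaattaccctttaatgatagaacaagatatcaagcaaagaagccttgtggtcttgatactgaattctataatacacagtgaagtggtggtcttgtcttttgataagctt
RPP8L3: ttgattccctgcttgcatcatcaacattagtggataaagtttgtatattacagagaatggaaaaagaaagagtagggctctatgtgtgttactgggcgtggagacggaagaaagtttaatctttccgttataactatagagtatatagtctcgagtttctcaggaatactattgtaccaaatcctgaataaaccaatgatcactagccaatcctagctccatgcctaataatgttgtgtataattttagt

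RRS1 and RPS4 form a receptor pair against bacterial and fungal effectors, in which RRS1 carries a WRKY domain that the effectors target. They lie head to head, RPS4 at chr5:18321764-18326175 (minus strand) and RRS1 at chr5:18326203-18332920 (plus strand), with 27 bases between them at chr5:18326176-18326202, shown on the plus strand because it is the whole space between the 2 annotated starts.
RPS4-RRS1 gap: tgagatttgagtggttgaatgtccaat

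RRS1 had 38.7, 40.1 and 41.2 CPM in jazD, 30.5, 32.7 and 29.2 CPM in jazQ, and 30.2, 32.3 and 30.8 CPM in Col-0. All jazD libraries were higher (0.36 ± 0.07 SE, adjusted p = 0.0014 against Col-0). RPS4 had 30.2, 28.8 and 30.4 CPM in jazD, 29.1, 26.9 and 26.5 CPM in jazQ, and 31.5, 27.4 and 28.6 CPM in Col-0, and the groups overlapped (0.03 ± 0.07 SE, adjusted p = 0.81). WRKY16, also known as RRS1B, is a paralogue of RRS1 with 73.2% identical coding sequence, and had 16.4, 16.2 and 16.4 CPM in jazD, 28.7, 26 and 25.1 CPM in jazQ, and 29.7, 24.1 and 28.4 CPM in Col-0. Here jazD was the low group with no overlap (-0.74 ± 0.09 SE, adjusted p = 3.9e-05), the opposite direction to RRS1. Its own partner AT5G45060 was not called (-0.10, adjusted p = 0.35).

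**Figure D5:**
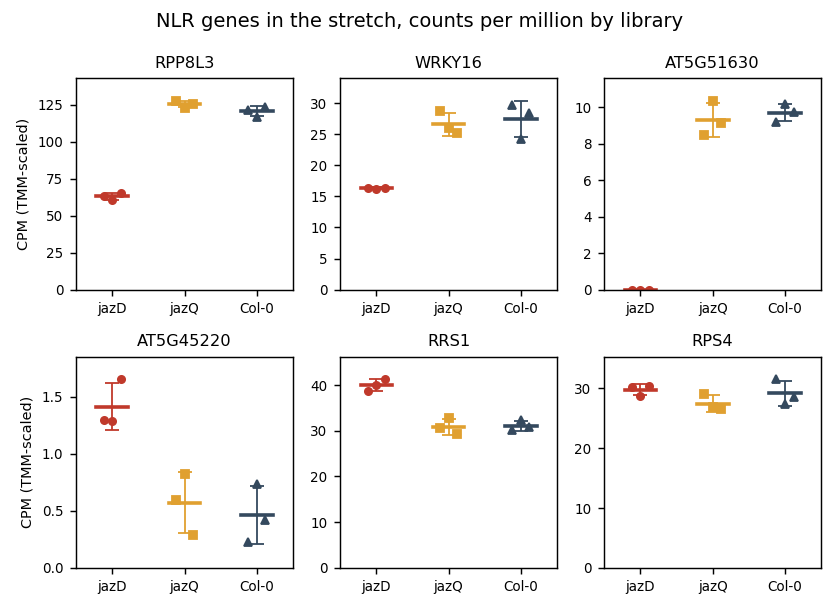
CPM (TMM-scaled counts) of 6 NLR genes of the stretch in each library of jazD, jazQ and Col-0, with the mean as a bar and the SD as an error bar (n = 3). RPP8L3 and WRKY16 are lower and AT5G51630 is at 0 in jazD, AT5G45220 and RRS1 are higher, and RPS4 overlaps between the genotypes.

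AT5G45220 lies in the same cluster as RRS1 and had 1.3, 1.29 and 1.65 CPM in jazD, 0.599, 0.826 and 0.289 CPM in jazQ, and 0.23, 0.734 and 0.422 CPM in Col-0. The counts are low, and all jazD libraries were above the rest (1.61 ± 0.40 SE, adjusted p = 0.0098). LAZ5, which takes part in lesion formation in a mutant of the lipid transfer protein ACD11, had 40.9, 38.1 and 39.1 CPM in jazD, 31.3, 31.2 and 29 CPM in jazQ, and 34.4, 34.3 and 33.8 CPM in Col-0. All jazD libraries were higher (0.20 ± 0.06 SE, adjusted p = 0.03). AT5G46450, a neighbour of RPS6, had 46.7, 47.2 and 44.5 CPM in jazD, 41.6, 39.8 and 35 CPM in jazQ, and 41.9, 36.9 and 38 CPM in Col-0, and again jazD was the high group (0.24 ± 0.08 SE, adjusted p = 0.034). AT5G45000 had 2.38, 2.16 and 2.26 CPM in jazD, 2.79, 2.3 and 2.26 CPM in jazQ, and 2.94, 3.42 and 3.33 CPM in Col-0, with jazD below Col-0 and overlapping with jazQ (-0.51 ± 0.16 SE, adjusted p = 0.037 against Col-0). The calls of these last 3 genes changed when single libraries were left out. LAZ5 was lost on leaving out any jazD or Col-0 library other than jazD replicate 2 (adjusted p = 0.059 to 0.11), AT5G46450 without jazD replicate 1 or 2 or Col-0 replicate 2 or 3 (0.09 to 0.10), and AT5G45000 on leaving out any of them other than Col-0 replicate 1 (0.068 to 0.10). RPS6, a receptor for the bacterial effector HopA1, had a log2 fold change of 0.00 (adjusted p = 0.99). VICTR and VICTL, neighbouring genes of the same cluster, were at -0.13 and 0.00 and share 66.7 and 48.7% of their 50-base words with other genes.

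Genes that NLRs signal through or that hold them in check were taken from 6 lists of 45 genes, of which 44 could be tested. In jazD against Col-0, 6 were called higher and 6 lower, where 25.8% of all genes were called. Of the lipase-like partners (1 of 4 called, median -0.24), PAD4 was lower in jazD, with 38.9, 44 and 49.2 CPM in jazD, 49.95, 52.5 and 64.3 CPM in jazQ, and 55.7, 85 and 60.6 CPM in Col-0. EDS1 was not called (-0.34, adjusted p = 0.14), nor was SAG101 (-0.13). Of the chaperones that fold NLRs (2 of 7 called, median -0.09), HSP90.2 was lower, with 277, 278 and 279 CPM in jazD, 379.9, 368 and 384 CPM in jazQ, and 376, 398 and 332 CPM in Col-0 (-0.41 ± 0.07 SE, adjusted p = 0.0005). HSP90.4, a close copy of it, was higher (0.40 ± 0.07 SE, adjusted p = 0.0015), and the division of reads between the copies was not tested. The list of guarded proteins and membrane partners (2 of 5 called, median 0.22) also holds the enzyme FMO1. RIN4 of that list, the protein watched by RPM1 and RPS2, had 53.6, 49.3 and 46.6 CPM in jazD, 27.1, 20.5 and 25.2 CPM in jazQ, and 30.6, 28.9 and 30.5 CPM in Col-0. It was higher in every jazD library (0.73 ± 0.09 SE, adjusted p = 7.0e-05), while its guards were not called. FMO1, which makes N-hydroxypipecolic acid, had 6.48, 4.97 and 4.57 CPM in jazD, 1.93, 2.48 and 2.79 CPM in jazQ, and 2.65, 4.22 and 1.64 CPM in Col-0 (0.93 ± 0.28 SE, adjusted p = 0.031).

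Of the negative regulators (1 of 6 called, median -0.09), the copine BON1, which keeps SNC1 expression down, was lower in jazD (-0.30 ± 0.09 SE, adjusted p = 0.028), where SNC1 itself was not called. Among factors that act on NLR transcripts (2 of 9 called, median -0.02), SGS3, needed for secondary small RNAs, had 15, 17.4 and 18.2 CPM in jazD, 21.8, 23.2 and 25.8 CPM in jazQ, and 23.6, 26.6 and 23.6 CPM in Col-0, and was lower in every jazD library (-0.55 ± 0.09 SE, adjusted p = 0.00087). EDM2, a chromatin factor needed for full-length RPP7 transcript and itself in the stretch, had 59, 60 and 67.2 CPM in jazD, 44.6, 52.6 and 44.6 CPM in jazQ, and 47.8, 45.1 and 48.3 CPM in Col-0, with jazD the high group (0.40 ± 0.08 SE, adjusted p = 0.0023). Of 13 genes of salicylate synthesis and response, 4 were called (median -0.03). PR2, a secreted glucanase, had 169, 128 and 236 CPM in jazD, 284, 245 and 399 CPM in jazQ, and 405, 631 and 337 CPM in Col-0, lower in jazD (-1.36 ± 0.34 SE, adjusted p = 0.029). ALD1, which makes pipecolic acid, was lower (-0.95 ± 0.24 SE, adjusted p = 0.018), and EDS5, which exports a salicylate precursor from the chloroplast, and the transcription factor WRKY38 were higher (0.64 ± 0.17 SE, adjusted p = 0.024 and 1.5 ± 0.15 SE, adjusted p = 1.0e-05). PR1, a common marker of salicylate signalling, had 579, 493 and 778 CPM in jazD, 311, 258 and 461 CPM in jazQ, and 453, 736 and 330.3 CPM in Col-0. Its jazD libraries overlapped with those of Col-0 (0.28, adjusted p = 0.64) and all lay above those of jazQ.

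Several of these calls changed when single libraries were left out. PAD4 (-0.61 ± 0.17 SE, adjusted p = 0.036) was lost without any single jazD library or without jazQ replicate 2 (adjusted p = 0.05 to 0.11), and PR2 without jazD replicate 1 or 2 or Col-0 replicate 1 or 2 (0.061 to 0.093). ALD1 was lost without any single jazD library (0.051 to 0.069), EDS5 without any single jazD library or without Col-0 replicate 1 or 3 (0.052 to 0.077), FMO1 without jazD replicate 1 or 2 or Col-0 replicate 1 or 3 (0.063 to 0.11) and BON1 without jazD replicate 2 or 3 or Col-0 replicate 1 or 2 (0.055 to 0.13). Col-0 replicate 2 was the highest Col-0 library for PAD4, EDS1, PR1, PR2, ALD1 and EDS5. In jazQ against Col-0 the edgeR test called 0 of the 44 genes, against 1.27% of all genes (0.861% higher and 0.412% lower). At an unadjusted p under 0.05 there were 5, all lower in jazQ, and DESeq2's Wald test called 1. In jazD against jazQ, 10 were called higher and 3 lower, against 28.8% of all genes, the largest rise being at WRKY38 (1.68 ± 0.16 SE, adjusted p = 4.2e-06) and the largest fall at ALD1 (-1.0 ± 0.24 SE, adjusted p = 0.013), a call lost without jazD replicate 2 (0.052).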

How the data were processed

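RNA-seq was made from whole rosettes of 9 plant pools. The authors deposited expected counts, in which RSEM 1.2.25 divides reads among the genes they match, and TPM, both per gene and on the TAIR10 genome per the submitters' processing notes. Not given in the sources used here are the aligner, the strand setting and the annotation version. The members and gene lists were chosen with earlier results of these data known. After rounding, the expected counts went into edgeR 4.0.16 (quasi-likelihood F test, robust fit, TMM scaling, filterByExpr with a minimum count of 10) in R 4.3.3, all 9 libraries in 1 fit and the genotype as the only term, for 3 comparisons, with Benjamini-Hochberg adjustment over 19405 genes and a threshold of 0.05. Biological variation between replicates had a common coefficient of 9.03%. The script was tested on simulated data. CPM were computed from the counts for values within a gene, and deposited TPM serve levels between genes. Intervals and floors of counts cover counting error only. Alternatives used DESeq2 1.42.0, limma 3.58.1, other filters and each library left out in turn. Genes named are known receptors among the members, the up to 8 largest rises and falls called in each comparison outside the stretch, the up to 8 largest called changes within it, the 5 highest members and up to 4 called genes a list. Sequences, positions and copies, found as shared 50-base words, come from RefSeq TAIR10.1 by gene identifier, aligned with edlib 1.3.9.post1, and no position was carried between builds. Some members that the rule for named genes takes are not reported here.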

Additional observations from a re-analysis of the deposited data

How the results depend on the processing

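Over 19 alternatives no call of a named gene reversed its direction, and signs of genes without a call were not counted. The balance of higher and lower calls outside the stretch did turn with TPM, as given above. Of the calls named in jazD against Col-0, 12 of 20 outside the stretch and 5 of 8 within it were kept in all alternatives. On log2(TPM + 1) and log2(TPM + 0.1), 7 and 7 members outside the stretch were higher in jazD than in Col-0, in place of 15, and 2 and 2 within it, in place of 4, as were 2 with DESeq2's Wald test. In jazD against jazQ these TPM settings gave 3 and 3 higher in the stretch in place of 5, and 5 and 5 of the listed partner genes lower in place of 3, and omitting the count filter gave 2 members lower outside in place of 4. In jazQ against Col-0, 1 member outside was lower with DESeq2's Wald test, without the count filter and with a replicate block, ADR1 in each case, and of the listed genes 1, 1 and 2. The block also gave 1 lower member in the stretch, VICTR, and over all genes 315 higher and 257 lower, in place of 167 and 80. The cause was not tested. Same-numbered libraries deviated together with correlations of 0.015 to 0.306, not all of them best with their own number, so the numbers were not taken as pairs. With the block, 16 members outside were higher and 11 lower in jazD than in Col-0, with RPS2 (-0.56, adjusted p = 0.017), RPP13 (0.19, 0.044) and AT4G19530 (-0.66, 2.6e-06) among those gained. Leaving out each library gave 10 to 16 higher and 6 to 9 lower outside the stretch in jazD against Col-0, 2 to 4 and 3 to 4 within it, and 4 to 7 and 2 to 10 of the listed genes. In jazD against jazQ it gave 13 to 20 and 2 to 6 outside, 3 to 5 and 3 to 3 within, and 5 to 12 and 2 to 4 of the listed genes, and in jazQ against Col-0 0 to 1 lower members outside and 0 to 4 lower listed genes. Genes of about 1 CPM or less rest on few reads, and 31 members were too low to be tested.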

Other observations

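AT5G47260, a gene of the stretch that the deposited table describes as nucleotide binding and that the rule does not take, had counts in jazD alone. It had 9.94, 11.3 and 14 CPM in jazD, 0, 0 and 0 CPM in jazQ, and 0, 0 and 0 CPM in Col-0, which puts jazD at least 206-fold above Col-0 on a floor of 3 counts over the group. TAO1, a TIR-type receptor of the stretch outside the rule, had 9.94, 8.01 and 8.18 CPM in jazD, 21.3, 21.1 and 19.7 CPM in jazQ, and 22.9, 21.8 and 22.1 CPM in Col-0, and jazD was the low group (-1.35 ± 0.09 SE, adjusted p = 2.3e-07 against Col-0). The CC-type receptor ZAR1, also outside the rule, was at 71.3 ± 4.54 TPM in jazD, 74.9 ± 6.65 TPM in jazQ and 76.9 ± 9.57 TPM in Col-0 (SD, n = 3 in each group). Its mean lay between those of RPP4 and RPP7 in jazQ and Col-0, and below both in jazD. These 3 genes were chosen after their values were seen.

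Some members were highest in the same-numbered library of every genotype. WRR4A, a receptor for white rust, had 59.8, 55.7 and 46.3 CPM in jazD, 86.2, 63.7 and 44.4 CPM in jazQ, and 90.7, 72.6 and 45.0 CPM in Col-0. Of the 110 tested members, 20 were highest in the library numbered 1 in every genotype, 5 in the library numbered 2 and 2 in the library numbered 3. What the numbers stand for is not labelled.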
